A study of Mus musculus with 8 samples.

Results

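The guidance genes Efnb1, Efnb2, Ephb4, Efna1, Epha2, Plxnd1, Unc5b, Robo1, Robo4 and Sema3g, which encode ligands and receptors, were followed across hematopoietic clusters and endothelium of the mouse embryonic aorta. They were taken by name, as the 10 members of a fixed list, from a table of raw counts for 24015 genes. All 10 were in the table, and all 10 were among the 13908 genes that passed the filter on low counts. The experiment held 8 libraries made from 100 sorted cells each with the SMARTSEQ2 protocol, 2 for each of 4 groups. All cells came from embryos at day E11.5, from the AGM (the region around the dorsal aorta in which hematopoietic stem cells emerge) and the vitelline and umbilical arteries. Clusters, the groups of round cells that bud from the arterial wall, were sorted as Ter119- VE-Cadherin+ c-Kit+ cells, and endothelium as Ter119- VE-Cadherin+ c-Kit- CD41- CD45- cells. Each population was sorted from 2 genotypes, wild type and Sl/Sl, the latter with a germline deletion at the Steel locus that removes Kitl, the ligand of the receptor c-Kit, from every cell of the embryo. Embryos of 1 genotype could be pooled, and the sources do not state which sorting experiment a library came from. The p-values therefore measured only the spread between the libraries of a group.

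Ephrins are ligands anchored in the cell membrane, and they signal on contact to Eph receptor tyrosine kinases on the neighbouring cell. The B-type ephrins cross the membrane and can also pass a signal back into the cell that carries them, whereas A-type ephrins are held by a lipid anchor. In blood vessels ephrin-B2 marks arteries and its receptor EphB4 is best known from veins. Plexins are receptors for semaphorins, Unc5b is a netrin receptor found on arteries and sprouting tip cells, and Robo1 and Robo4 belong to the Roundabout family, of which Robo1 binds Slit proteins and Robo4 is a largely endothelial member. Members of these families were first described as guides of growing axons, and several are also used in the patterning of vessels.

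The labels were checked first. Wild type endothelium held 1250 and 923 counts of Kitl, and Sl/Sl endothelium held 6 and 2. Sl/Sl clusters held 1 and 3 counts of Kitl and wild type clusters held 110 and 0, and this gene did not set wild type clusters replicate 2 apart from the Sl/Sl libraries. Total counts per library ran from 8933236 to 13428214. Hematopoietic markers (10 genes, among them Ptprc and Runx1) summed to between 1046 and 1485 CPM (counts scaled to a common library total with TMM factors) in clusters and between 70.4 and 108 CPM in endothelium. Macrophage markers (9 genes) summed to between 583 and 976 CPM in clusters and between 7.27 and 27.1 CPM in endothelium. Endothelial markers (10 genes, all of them detected in every library) summed to 1166 and 422 CPM in wild type clusters and 2720 and 740 CPM in Sl/Sl clusters. In the 4 endothelium libraries the same sum lay between 5786 and 6535 CPM. The 2 libraries of each cluster group thus differed in their endothelial marker content by more as a fold than any endothelium libraries did. In bulk libraries, fewer cells of a type and less RNA per cell cannot be told apart.

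The promoters of 4 members are shown because the results below turn on these genes. Efnb2 and Ephb4 encode the ligand and receptor whose levels moved together, Robo4 was called in every comparison of the cell types, and Efnb1 was the member with lower mean levels in endothelium. Each is the stretch of 250 bases before the start of the gene in RefSeq (assembly GRCm38.p6), read 5′ to 3′ on the strand of the gene. All 10 members had such a window. The windows lie at chr8:8661243-8661492 (minus strand) for Efnb2, chr5:137349859-137350108 (plus strand) for Ephb4, chr9:37401722-37401971 (plus strand) for Robo4 and chrX:99135811-99136060 (plus strand) for Efnb1. Capitals mark the letters CAGGAA or CCGGAA, cores bound by ETS factors, and TGGGAA, the core bound by RBPJ, the DNA-binding partner of Notch, on either strand.
Efnb2: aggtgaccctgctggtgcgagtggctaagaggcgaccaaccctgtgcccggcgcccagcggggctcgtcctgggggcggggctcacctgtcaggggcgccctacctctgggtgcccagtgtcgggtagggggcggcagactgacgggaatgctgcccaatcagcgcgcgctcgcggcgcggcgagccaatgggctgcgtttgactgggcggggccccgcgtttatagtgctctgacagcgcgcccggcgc
Ephb4: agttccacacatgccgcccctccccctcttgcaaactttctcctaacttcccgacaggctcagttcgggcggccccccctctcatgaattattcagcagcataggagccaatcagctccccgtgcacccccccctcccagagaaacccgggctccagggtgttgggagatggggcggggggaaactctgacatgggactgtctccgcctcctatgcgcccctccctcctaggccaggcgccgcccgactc
Robo4: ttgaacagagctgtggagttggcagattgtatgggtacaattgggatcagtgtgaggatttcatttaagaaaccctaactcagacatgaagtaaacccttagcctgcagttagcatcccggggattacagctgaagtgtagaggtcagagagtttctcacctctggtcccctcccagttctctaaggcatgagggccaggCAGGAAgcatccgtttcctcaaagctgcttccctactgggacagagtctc
Efnb1: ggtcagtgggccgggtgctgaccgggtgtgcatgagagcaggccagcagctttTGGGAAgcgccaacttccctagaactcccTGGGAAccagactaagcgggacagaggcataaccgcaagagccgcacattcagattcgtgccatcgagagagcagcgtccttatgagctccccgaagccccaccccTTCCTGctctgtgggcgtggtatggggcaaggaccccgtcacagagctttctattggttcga

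The Efnb2 and Ephb4 windows held none of these letters, the Robo4 window held CAGGAA once, and the Efnb1 window held CAGGAA once and TGGGAA at 2 places. CAGGAA was found in the windows of 5 of the 10 members (Efnb1, Efna1, Epha2, Plxnd1 and Robo4), against 25.4% of 27018 RefSeq windows of the same length. CCGGAA was found in 1 member (Unc5b) against 12.2% of windows, and either of the ETS cores in 6 members against 34.9%. TGGGAA was found in 1 member (Efnb1) against 21.5% of windows. No matches overlapped within a member. The windows also differed in base composition. The count of CpG dinucleotides ran from 2 in Robo4 to 27 in Efnb2 and Unc5b, with a median of 12.5 over the members and of 6 over all windows. In the build of the count table (mm9) the genes themselves lie on 10 chromosomes, from Efnb2 at chr8:8617439-8660773 (minus strand) and Ephb4 at chr5:137791337-137815750 (plus strand) to Robo4 at chr9:37209631-37221607 (plus strand) and Efnb1 at chrX:96331469-96344330 (plus strand). None of the members shared exon bases with another gene of the table.

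Levels were compared between genes per length, as RPKM (CPM per kilobase of exon). In wild type endothelium Efna1 stood first, with 563 ± 80.6 RPKM (SD, n = 2), and Efnb2 followed with 183 ± 17.4 RPKM. The ranges of these ligands did not overlap with each other or with the next gene. Plxnd1 (45.4 RPKM), Unc5b (35.3 RPKM), Robo4 (28.3 RPKM) and Ephb4 (23.7 RPKM) came next, and the neighbours among these 4 overlapped in range. Robo1 (4.32 RPKM), Epha2 (1.78 RPKM), Sema3g (1.08 RPKM) and Efnb1 (0.168 RPKM) were lowest. The order in Sl/Sl endothelium had the same genes in the first 3 and the last 4 places, with Robo4 (40.2 RPKM) before Unc5b (36.7 RPKM). In clusters of both genotypes Efna1 and Efnb2 again had the highest means, but their ranges overlapped there. They reached 21.8 and 18.0 RPKM in wild type clusters and 105 and 41.1 RPKM in Sl/Sl clusters.

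**Figure D1:**
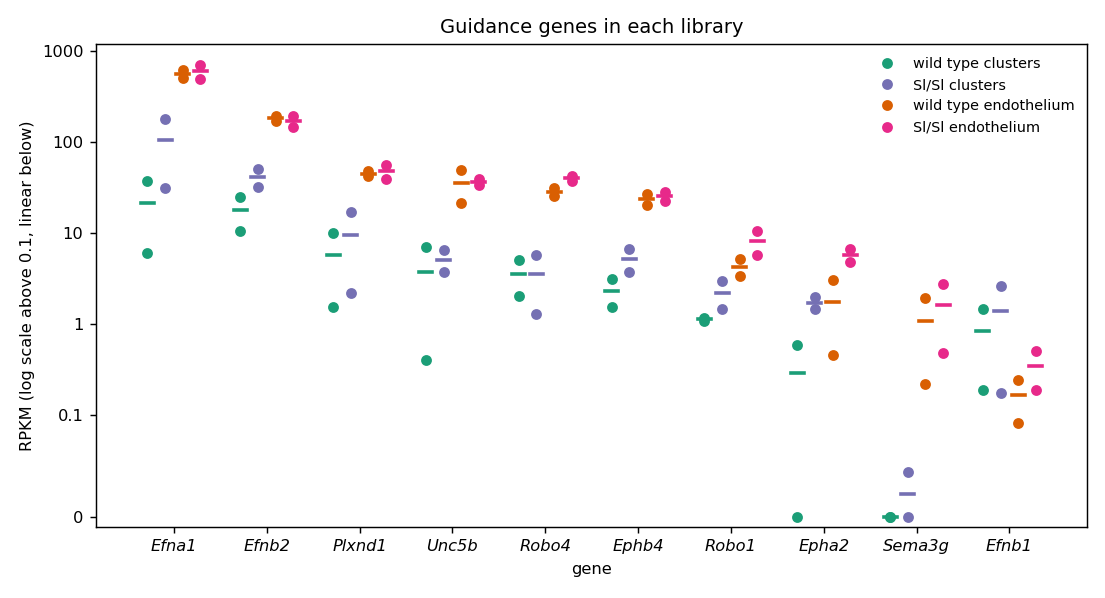
RPKM of each guidance gene (vertical axis, log scale above 0.1 and linear below) in every library, with points for the 2 libraries of a group and a short line for their mean. Efna1 and Efnb2 have the highest means in all 4 groups, 8 of the 10 genes have all endothelium points above all cluster points, and Sema3g is at 0 in 3 of the 4 cluster libraries.

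Endothelium was then compared with clusters, averaged over the genotypes, with edgeR's quasi-likelihood test and Benjamini-Hochberg adjustment over all genes. A gene was called at an adjusted p under 0.1, the threshold of the study. Of the 10 members 8 were called higher in endothelium and 0 lower, where 8.48% of all tested genes were called higher and 8.12% lower. Sema3g, 1 of the 8, was tested only because its endothelium libraries passed the filter, and the count rests on the other 7 of 9 members. At an unadjusted p under 0.05 there were 8 members, all of them higher, where 26.6% of all genes passed in either direction. DESeq2 called 8 members higher, where it called 12.1% of all genes higher. The median log2 fold change was 2.75 over the members and -0.07 over all tested genes. The 8 called genes were also those in which all 4 endothelium libraries lay above all 4 cluster libraries, which held for 10.1% of all tested genes. Sema3g adds no support to this count either. Epha2 and Efnb1 were not called.

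Efnb2, the transmembrane ligand of EphB4, had 109 and 46.1 CPM in wild type clusters and 217 and 138 CPM in Sl/Sl clusters. In endothelium it had 736 and 842 CPM in wild type and 835 and 630 CPM in Sl/Sl. The lowest endothelium library was thus above the highest cluster library. Efnb2 was 6.47-fold higher in endothelium (log2 fold change 2.69, SE 0.29, edgeR adjusted p = 0.000778), which placed it at rank 105 of all tested genes by p-value. Its endothelium libraries spread over 1.34-fold and its cluster libraries over 4.71-fold.

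Efna1, a lipid-anchored ligand of EphA receptors including EphA2, had 61.7 and 9.89 CPM in wild type clusters and 294 and 51.4 CPM in Sl/Sl clusters. Endothelium held 1018 and 831 CPM in wild type and 805 and 1165 CPM in Sl/Sl. The cell types did not overlap, although the cluster libraries spread over 29.8-fold. The difference was 12.1-fold (log2 fold change 3.60, SE 0.65, edgeR adjusted p = 0.00905). The log2 value was 4.53 without wild type clusters replicate 1 and 4.48 without Sl/Sl clusters replicate 1.

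Sema3g encodes a secreted class 3 semaphorin that is known from arterial endothelium. It had 0 and 0 counts in wild type clusters and 2 and 0 counts in Sl/Sl clusters. Endothelium had 90 and 8 counts in wild type libraries and 116 and 15 counts in Sl/Sl libraries, so that replicate 1 carried most of the counts in either genotype. In wild type the mean of the endothelium libraries was at least 16.2-fold higher than a floor of 3 counts per cluster library. In Sl/Sl the ratio of summed counts, scaled to the library totals, was 87.5, with a 95% interval of 23.8 to 730 (exact binomial) that covers counting error only. The averaged difference was called (edgeR adjusted p = 0.0705), but Sema3g passed the filter on low counts through its endothelium libraries alone, so that this call is no support for a difference. The call was lost when any of 6 libraries was left out, namely either cluster library of either genotype, wild type endothelium replicate 1 or Sl/Sl endothelium replicate 1.

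Efnb1, the other B-type ephrin of the list, was the only member with a negative difference. It had 56 and 8 counts in wild type clusters, and 7 and 123 in Sl/Sl clusters. Wild type endothelium held 10 and 3 counts, and Sl/Sl endothelium 7 and 14. High and low libraries occurred within the clusters of each genotype, and the cell types overlapped. The log2 fold change was -2.14 with an SE of 1.59 (edgeR adjusted p = 0.439). The sum of 8 mesenchymal markers, which include Col1a1, Col3a1 and Pdgfra, was highest in the same library, Sl/Sl clusters replicate 2, at 2109 CPM with all 8 detected. It lay between 29.3 and 606 CPM in the other libraries, with Tcf21 at 0 counts in 4 of these and Pdgfrb at 0 in 2. The marker sum did not follow Efnb1 in all of them. In wild type clusters it was 501 and 480 CPM, where Efnb1 had 56 and 8 counts. The 606 CPM were those of wild type endothelium replicate 1, where Efnb1 had 10 counts. The part of mesenchymal cells in the Efnb1 values was not tested. Without Sl/Sl clusters replicate 2 the Efnb1 difference between the Sl/Sl cell types turned to 0.97 on the log2 scale.

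Among the receptors, Ephb4, the receptor tyrosine kinase that binds ephrin-B2, had 13.7 and 6.70 CPM in wild type clusters and 29.1 and 16.4 CPM in Sl/Sl clusters. Endothelium had 117 and 90.3 CPM in wild type and 124 and 97.6 CPM in Sl/Sl. All endothelium libraries lay above all cluster libraries, and the difference was 7.03-fold (log2 fold change 2.81, SE 0.36, edgeR adjusted p = 0.00196).

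Epha2, the receptor for ephrin-A1, was counted 27 and 0 times in wild type clusters and 95 and 84 times in Sl/Sl clusters. Wild type endothelium gave 153 and 18 counts, and Sl/Sl endothelium 218 and 224. Wild type endothelium replicate 2 fell below both Sl/Sl cluster libraries. The log2 fold change was 2.16 with a 95% interval of -0.59 to 4.92 (edgeR adjusted p = 0.299). The difference was called without wild type clusters replicate 1, where the fit gave 5.55 with the 0 counts of replicate 2 as the only wild type cluster library, so that this value is no measure of its size.

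Plxnd1, the semaphorin receptor of endothelial cells, had 69.6 and 10.8 CPM in wild type clusters and 118 and 15.2 CPM in Sl/Sl clusters. Endothelium had 335 and 292 CPM in wild type and 276 and 384 CPM in Sl/Sl. The libraries separated by cell type, with a difference of 6.22-fold (log2 fold change 2.64, SE 0.68, edgeR adjusted p = 0.0385). The log2 value was 3.58 without wild type clusters replicate 1 and 3.70 without Sl/Sl clusters replicate 1. Unc5b, the netrin receptor, had 41.3 and 2.41 CPM in wild type clusters and 38.3 and 21.8 CPM in Sl/Sl clusters. Its endothelium values were 289 and 125 CPM in wild type and 232 and 198 CPM in Sl/Sl. The cell types did not overlap and the difference was 8.24-fold (log2 fold change 3.04, SE 0.71, edgeR adjusted p = 0.0263), with a log2 value of 4.63 without wild type clusters replicate 1.

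The Roundabout receptors differed in the size of their change. Robo4 had 18.7 and 7.63 CPM in wild type clusters and 21.6 and 4.83 CPM in Sl/Sl clusters. Endothelium had 93.7 and 115 CPM in wild type and 157 and 140 CPM in Sl/Sl. With no overlap, Robo4 was 9.44-fold higher in endothelium (log2 fold change 3.24, SE 0.50, edgeR adjusted p = 0.0046), and the log2 value was 3.96 without Sl/Sl clusters replicate 1. Robo1, which is expressed in many tissues, had 8.97 and 8.18 CPM in wild type clusters and 11.1 and 22.8 CPM in Sl/Sl clusters. Endothelium had 25.9 and 39.4 CPM in wild type and 43.9 and 80.7 CPM in Sl/Sl. The gap between the cell types was narrow, and the difference was 3.74-fold (log2 fold change 1.90, SE 0.46, edgeR adjusted p = 0.031). Without Sl/Sl endothelium replicate 2 Robo1 was no longer called, with a log2 fold change of 1.64. The sizes for Robo4 and Robo1 were not tested against each other.

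The same comparison was made within each genotype, on libraries that also enter the average. In wild type 4 members were called higher in endothelium (Efna1, Ephb4, Efnb2 and Robo4), where 4.56% of all genes were. In Sl/Sl 3 members were called (Ephb4, Efnb2 and Robo4), where 0.985% of all genes were. The log2 fold change of Efnb2 was 3.34 in wild type (edgeR adjusted p = 0.0038) and 2.05 in Sl/Sl (edgeR adjusted p = 0.045). Ephb4 gave 3.34 (edgeR adjusted p = 0.01) and 2.28 (edgeR adjusted p = 0.0668), and Robo4 gave 2.99 (edgeR adjusted p = 0.047) and 3.49 (edgeR adjusted p = 0.0518). Efna1 was 4.69 in wild type (edgeR adjusted p = 0.0282) and 2.51 in Sl/Sl, where it was not called (edgeR adjusted p = 0.229). These counts rested on single libraries. In wild type, leaving out wild type clusters replicate 1 moved Efna1 to 6.55, Efnb2 to 4.10, Ephb4 to 3.95 and Robo4 to 3.77. Epha2 moved to 9.35 there, with the 0 counts of replicate 2 as the only wild type cluster library. That value is no measure of its size. Without wild type clusters replicate 2, 4 members were called (2.33% of all genes), with Robo4 lost, Unc5b gained and Efna1 at 3.87. In Sl/Sl 0 members were called without Sl/Sl clusters replicate 2 (0.277% of all genes), where Robo4 was at 2.78. There was 1 (Robo4) without Sl/Sl endothelium replicate 1 (0.364%), and 5 without Sl/Sl clusters replicate 1 (1.13%), where Robo4 was at 4.94. At an unadjusted p under 0.05, 7 members passed in Sl/Sl with all libraries, where 14.4% of all genes did. The difference between the genotypes was tested directly as an interaction, given below.

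**Figure D2:**
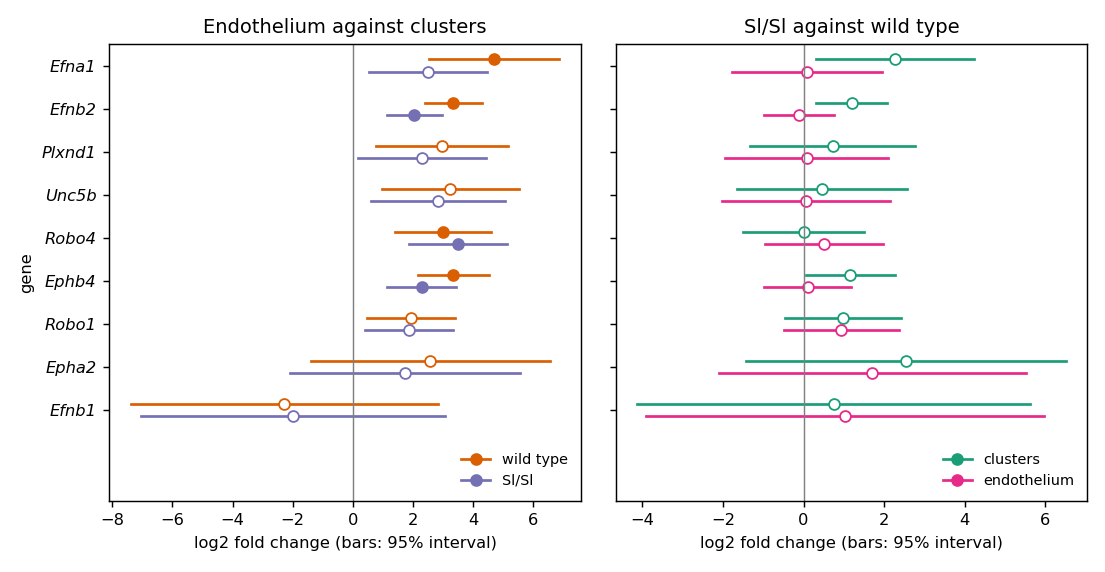
Fitted log2 fold change (horizontal axes) with its 95% interval for 9 guidance genes, endothelium against clusters in each genotype (left) and Sl/Sl against wild type in each cell type (right), with filled points for genes called at an adjusted p under 0.1. Sema3g is left out because its cluster counts are 0 to 2, and the filled points are 4 in wild type and 3 in Sl/Sl on the left and 0 on the right.

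Efnb2 and Ephb4 were set against each other in each library, since they encode a ligand and its receptor. The ratio of Efnb2 to Ephb4 in RPKM was 8.05 and 6.95 in wild type clusters and 7.54 and 8.47 in Sl/Sl clusters, while wild type endothelium gave 6.37 and 9.41, and Sl/Sl endothelium 6.80 and 6.52. It stayed between 6.37 and 9.41 while either gene changed by over 18-fold between its lowest and highest library (18.3-fold for Efnb2 and 18.5-fold for Ephb4). Such joint movement was not particular to this pair. Pearson's r of log2 CPM with Efnb2 over the libraries was 0.9927 for Ephb4, 0.994 for Arhgap29, 0.9931 for Jag1 and 0.9726 for Efna1. The mean log2 ratio was 2.84 (SD 0.26, n = 4) in endothelium and 2.95 (SD 0.12, n = 4) in clusters. The difference of -0.11 was smaller than the spread within endothelium (two-sided exact permutation test, p = 0.486, where 0.0286 is the smallest p that 4 against 4 libraries allow). This rested on wild type endothelium replicate 2, which had the highest ratio. Without it the other 3 endothelium ratios lay below every cluster ratio, with a difference of -0.24 (exact permutation test, p = 0.0571). Leaving out any of the other 7 libraries gave a difference between -0.16 and -0.05. With 2 against 2 libraries the smallest p is 0.333, so that the ratio could not be tested between genotypes within a cell type.

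**Figure D3:**
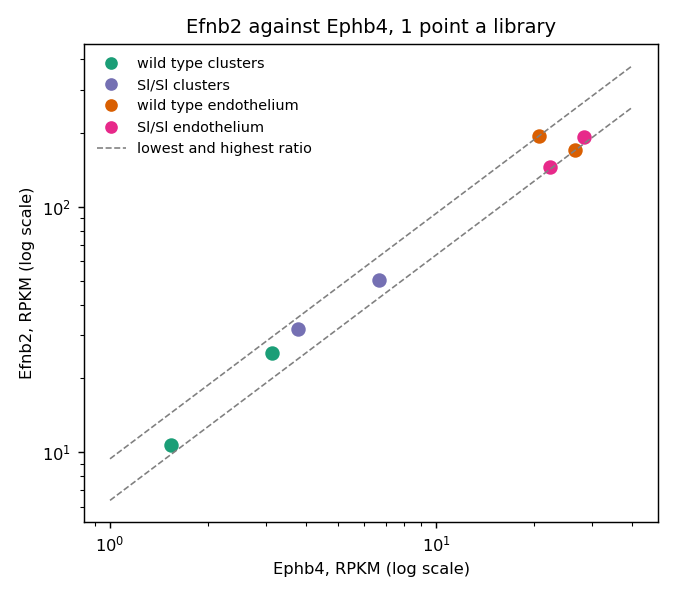
Efnb2 against Ephb4 in RPKM (both axes on a log scale), with 1 point for each of the 8 libraries and dashed lines at the lowest and the highest ratio of the genes. The points rise from wild type clusters to endothelium within the band between ratios of 6.37 and 9.41.

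The guidance genes varied between cluster libraries together with the endothelial markers. By log2 CPM with a prior count of 2, the members differed between the replicates of wild type clusters by a median of 4.29-fold, against 1.58-fold over all tested genes. Replicate 1 was the higher for 9 of the 10 members and for 47.8% of all tested genes. In Sl/Sl clusters the median was 2.00-fold, against 1.55-fold for all genes, with replicate 1 higher for 8 members and for 47.8% of all tested genes. In the endothelium groups the members differed by 1.4-fold in wild type and 1.39-fold in Sl/Sl. Replicate 1 was also the cluster library with the higher endothelial marker sum in each genotype. The part of endothelial RNA content in these differences was not tested.

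Each gene was therefore also expressed as a percentage of the summed CPM of the 10 endothelial markers, a scale chosen after the data were seen. The mix of markers in this sum differed between the cell types, so that the scale is no even measure of endothelial content. Wild type clusters replicate 2 held 2650 counts of Egfl7, 398 of Emcn and 154 of Cdh5. Wild type endothelium replicate 1 held 7178, 17012 and 8240 counts of the same genes. Efnb2 was 9.37% and 10.9% of that sum in wild type clusters, and 7.98% and 18.6% in Sl/Sl clusters. In endothelium it was 12.3% and 14.6% of the sum in wild type libraries and 13.4% and 9.64% in Sl/Sl libraries. The cell types overlapped on this scale. Efna1 was 5.29% and 2.34% in wild type clusters and 10.8% and 6.94% in Sl/Sl clusters, and lay between 12.9% and 17.8% in endothelium, above every cluster library. Plxnd1, at between 2.05% and 5.97% in clusters, overlapped with the 4.42% to 5.88% of endothelium. All 4 endothelium libraries stayed above all 4 cluster libraries in 2 of the 10 members on this scale (Efna1 and Sema3g), where 0.568% of all tested genes did so. Sema3g passed the filter on low counts through its endothelium libraries alone, so that this count rests on Efna1.

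**Figure D4:**
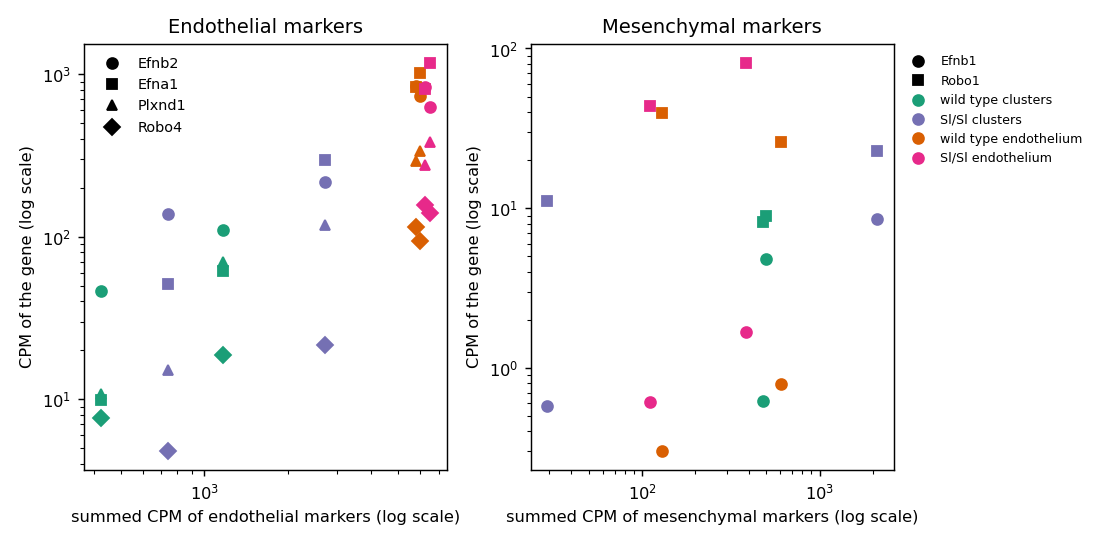
CPM of Efnb2, Efna1, Plxnd1 and Robo4 against the summed CPM of 10 endothelial markers (left), and of Efnb1 and Robo1 against the summed CPM of 8 mesenchymal markers (right), with 1 point per gene and library and all axes on a log scale. The 4 endothelium libraries sit between 5786 and 6535 CPM of endothelial markers, the cluster libraries between 422 and 2720 CPM, and the highest Efnb1 point is at 2109 CPM of mesenchymal markers.

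Sl/Sl was compared with wild type to see whether loss of Kitl went with other levels of the guidance genes. In clusters 0 of 9 members were called by edgeR's quasi-likelihood test, where 0% of all tested genes were. Sema3g was left out of this comparison because its cluster counts were at or under 3 in every library. At an unadjusted p under 0.05 there were 3 members, all higher in Sl/Sl, where 4.22% of all genes passed. DESeq2 called 0 members, where it called 1.36% of all genes. Efnb2 had a log2 fold change of 1.19 (SE 0.39, unadjusted p = 0.014, edgeR adjusted p = 0.987). Efna1 had 2.27 (SE 0.87, unadjusted p = 0.0274, edgeR adjusted p = 1) and Ephb4 had 1.16 (SE 0.49, unadjusted p = 0.0424, edgeR adjusted p = 1). The Sl/Sl libraries of Efnb2, Ephb4, Epha2 and Robo1 both lay above both wild type libraries, 4 of the 10 members, where 16.4% of all genes did so, and none of the members lay below. All 9 fitted differences were positive, where 51.9% of all tested genes were, with a median of 0.98 against 0.03 over all genes. The smallest of them was Robo4 at 0.00 (SE 0.66). Since most members varied together between cluster libraries, these signs are not independent of each other. Endothelial markers summed to 1166 and 422 CPM in wild type clusters against 2720 and 740 CPM in Sl/Sl clusters, with overlapping ranges. Taken as a percentage of that sum, Efnb2 overlapped between wild type (9.37 and 10.9) and Sl/Sl clusters (7.98 and 18.6). Ephb4 (1.18 and 1.59 against 1.07 and 2.22) and Robo1 (0.77 and 1.94 against 0.41 and 3.08) overlapped as well. Epha2 (0.20 and 0 against 0.29 and 0.79) kept its order. The 6 skeletal muscle markers summed to at most 43.4 CPM in wild type clusters and to 353 and 486 CPM in Sl/Sl clusters. Most of the Sl/Sl sum was Actc1, with 4078 and 4692 counts there against 61 and 162 in wild type. Of the 6 markers, 2 were detected in Sl/Sl clusters replicate 1 and 5 in replicate 2, against 2 and 4 in wild type clusters. Myod1, Myog, Myf5 and Myl1 had 0 counts in Sl/Sl clusters replicate 1. Mesenchymal markers summed to 501 and 480 CPM in wild type and 29.3 and 2109 CPM in Sl/Sl clusters. The part of these markers in the genotype values was not tested. The values also moved with single libraries. Without wild type clusters replicate 1, in which Kitl was detected, 2 members were called (Efnb2 with 1.95 and Unc5b with 3.63 on the log2 scale), where 0.505% of all genes were. Without wild type clusters replicate 2 Efnb2 was at 0.69, Ephb4 at 0.72 and Unc5b at -0.47, and without Sl/Sl clusters replicate 1 Efna1 was at 0.53, with 0 members called in either fit.

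In endothelium 0 of the 10 members were called between the genotypes, where 0% of all genes were. There were also 0 members at an unadjusted p under 0.05, where 4.17% of all genes passed. DESeq2 called 0 members, where it called 1.35% of all genes. The log2 fold changes of Efnb2 (-0.11, 95% interval -0.98 to 0.77) and Ephb4 (0.10, 95% interval -0.98 to 1.18) were near 0. Efna1 (0.09), Plxnd1 (0.07) and Unc5b (0.06) also had estimates near 0, with wider intervals. In Epha2, Robo1 and Robo4 both Sl/Sl libraries lay above both wild type libraries, 3 of the 10 members, where 13.5% of all genes did so. Their fitted differences were 1.71 (SE 1.69), 0.93 (SE 0.63) and 0.51 (SE 0.65) on the log2 scale. Epha2 and Robo1 had this order in clusters as well.

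The interaction tested whether the genotype difference in clusters was unlike that in endothelium. By edgeR's quasi-likelihood test 0 of 9 members were called, where 0% of all genes were. DESeq2 called 0 members, where it called 1.3% of all genes. At an unadjusted p under 0.05 by edgeR there was 1 member, where 5.29% of all genes passed. Efnb2 was that member, with a difference of 1.30 between the log2 fold changes (SE 0.55, unadjusted p = 0.0424, edgeR adjusted p = 0.902). Efna1 had 2.18 with a 95% interval of -0.49 to 4.85, and Ephb4 had 1.06 with a 95% interval of -0.48 to 2.60. When every gene of at least 1 count was kept in the fit, Efna1 was called, with 2.20 (edgeR adjusted p = 3.33e-05), so that this result depends on the filter.

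The other genes of these families were counted from wider lists of ligands, receptors and intracellular effectors. Of 76 other genes tested, 17 were called higher in endothelium and 3 lower in the comparison averaged over genotypes, so that 22.4% were higher, where 8.48% of all genes were. Among the 5 other ephrins and 9 other Eph receptors tested 0 were called by edgeR, and among the 4 other Slits and Robos 0 were called. Among the other plexins and neuropilins 4 of 9 were called, all higher. They included Nrp1 and Nrp2, co-receptors for semaphorins and VEGF. Nrp1, which acts beside Plxnd1, had 31.5 and 11.6 RPKM in wild type clusters, 56.2 and 53.8 RPKM in Sl/Sl clusters and between 167 and 190 RPKM in endothelium. Its log2 fold change was 2.35 (SE 0.28, edgeR adjusted p = 0.00125), and that of Nrp2 was 3.39 (SE 0.43, edgeR adjusted p = 0.00179). The plexins Plxna2 (2.57) and Plxna4 (2.91) were the other 2. Of 16 other semaphorins 3 were higher in endothelium, namely Sema6d (3.15), Sema6a (2.03) and Sema7a (4.56), and 2 were lower, Sema4d (-4.75) and Sema4b (-1.73). Sema7a was near 0 in clusters, between 0.04755 and 0.1755 RPKM, and had between 0.4628 and 4.54 RPKM in endothelium. Its fold change is thus uncertain in size, and its place in these counts carries little weight. Sema4d, a semaphorin of leukocytes, had between 3.78 and 15.1 RPKM in clusters and between 0.0262 and 3.38 RPKM in endothelium.

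Among 8 other netrin-related genes 2 were higher in endothelium, Flrt2 (log2 fold change 2.69), which encodes a ligand of Unc5 receptors, and Neo1 (1.59), a receptor related to the netrin receptor Dcc. Of 25 effectors 8 were higher and 1 was lower. Those with the smallest p-values were Rras (2.93), a small GTPase on which plexins act, Dpysl3 (1.78), Rgs3 (2.51) and Nck1 (1.01), an adaptor that binds Eph receptors and Robos. In the comparison of the genotypes 0 of the 76 genes were called by edgeR in either cell type.

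Likeness of pattern was measured as Pearson's r of log2 CPM over the 8 libraries, which share 2 cell types, so that any gene that differs between them scores high. The genes outside the list most like Efnb2 were Arhgap29 (r = 0.99), Jag1 (r = 0.99) and Fkbp7 (r = 0.99). For Ephb4 they were Wipf3, Sparcl1 and Acvrl1 and for Efna1 they were Cldn5, which is 1 of the 10 endothelial markers, Klhl4 and Zdhhc15, each with r = 0.99. Plxnd1 was closest to Arhgef28 (r = 1.00), Enpp3 and Slc22a23, and Unc5b to Col18a1 (r = 0.99), Cdc42bpb and Sox17. Robo4 was closest to Cmtm8 (r = 0.99), Med21 and Shfm1, Robo1 to Marcks (r = 0.96) and Pls3, and Sema3g to 2700081O15Rik (r = 0.98), Sema7a and Pgrmc1. Epha2 was closest to Bace2 (r = 0.97), Kctd12b and C1qtnf6, and Efnb1 to Galnt13 (r = 0.97), Fam46c and Zfp3. Among the members themselves r ran from 0.58 to 0.99 over the 36 pairs without Efnb1, with a median of 0.85. The 9 pairs with Efnb1 ran from -0.54 to 0.12, with a median of -0.41.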

How the data were processed

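Total RNA from sorted cells was made into SMARTSEQ2 libraries by the authors. Per the labels' processing notes, reads were mapped to mm9 with STAR 2.4.2a and counted on genes with featureCounts of Subread 1.4.5. DESeq2 1.12.4 is also named there. The deposited table holds unnormalised counts, with replicates kept apart. The annotation, strandedness, treatment of reads with several matches and whether reads or pairs were counted are not given in the sources used here.

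Counts were tested with edgeR 4.0.16 (limma 3.58.1, R 4.3.3) by the quasi-likelihood test, with TMM factors, filterByExpr, 4 group coefficients over 8 libraries and Benjamini-Hochberg adjustment over 13908 genes at 0.1. Residual and prior degrees of freedom were 4 and 5.24. The scripts were tested on simulated data. CPM and RPKM used TMM-scaled totals and the exon length of the table, and log2 CPM a prior count of 2. Alternatives were DESeq2 1.42.0, RLE size factors, other filters and threshold, a replicate block, 4-library fits and leaving out each library. Figures were drawn with matplotlib 3.10.9. The members, the wider gene lists and the tests were chosen with earlier results of these data known. Named genes were the members, Kitl as a label check, up to 4 other genes per list with the smallest p among those called, and the 3 genes most like each member, of which 1 is not reported here. Marker genes given as examples and Sema7a were named after their values were seen. Intervals cover counting error only where so stated, and a count of 0 allows up to 3 counts.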

Additional observations from a re-analysis of the deposited data

How the results depend on the processing

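The number of guidance genes called between the cell types, averaged over genotypes, was 7 or 8 under every alternative that kept all 8 libraries. Between 5.65% and 12.1% of all genes were called higher in these fits. Sema3g, which is no support, was in each count of 8. In wild type the number of called members was 8 with DESeq2 (10.1% of all genes were called higher) and changed when a library was left out. In Sl/Sl it was 5 with DESeq2 (4.99% of all genes were called higher) and 6 with every gene of at least 1 count (3.37%). The Sl/Sl number was 1 at a threshold of 0.05 (0.439%), and it changed when a library was left out. With every gene of at least 1 count, 2 members were called between the genotypes in clusters (Efna1 and Efnb2) and 1 in the interaction (Efna1). Of all genes, 1.48% and 1.05% were called there. Leaving out a library gave 0 to 2 calls between the genotypes in clusters. Members without overlap between the cell types fell from 8 to 2 when divided by the endothelial marker sum, with Sema3g, which is no support, in both counts. A minimum of 10 counts in every library kept 7 members. Counts over all genes that moved by over 1.5 times are given for DESeq2, with 3614 averaged over genotypes against 2310, 2613 against 1146 in wild type, and 1631 against 393 in Sl/Sl. In the genotype comparisons DESeq2 called 175 genes in clusters, 178 in endothelium and 175 in the interaction, against 0 in each, and every gene of at least 1 count gave 253, 65 and 179. That setting gave 1990 in wild type and 1266 in Sl/Sl. At 0.05 the counts were 1488, 657 and 222, and the fit of 4 libraries gave 211 in Sl/Sl and 2 between genotypes in endothelium. A minimum of 10 counts gave 9 between the genotypes in clusters, and the replicate block 8. When a library was left out the counts ranged from 592 to 1015 in wild type (592 without wild type clusters replicate 2, 727 and 750 without replicate 1 or 2 of wild type endothelium), 182 to 402 in Sl/Sl (182 without Sl/Sl clusters replicate 2 and 242 without Sl/Sl endothelium replicate 1), 6 to 76 between the genotypes in clusters (76 without wild type clusters replicate 1) and 0 to 27 in the interaction (27 without the same library). The causes were not tested.

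Deviations of same-numbered libraries were weakly correlated between groups (-0.11 to 0.16, the highest between the cluster groups). Such values cannot show whether libraries of 1 number shared a sorting experiment. With the replicate number as a block, 8 members were called averaged over genotypes, 6 in wild type, 4 in Sl/Sl and 0 in each genotype comparison. The same fit called 7.9%, 4.94% and 1.39% of all genes higher in the cell type comparisons, in that order.

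Of 310 single-gene values under the other alternatives 4 turned in sign, all near 0. They were Robo4 between genotypes in clusters, with -0.0061 by DESeq2, -0.0059 with RLE size factors and -0.0905 with the block, and Robo1 in the interaction, with -0.0379 with the block. When a library was left out, 37 of 308 values turned, in 17 pairs of a gene and a comparison, of which 1 compared cell types (Efnb1 in Sl/Sl, -2.91 to 0.97). On the log2 scale the genotype values in clusters ranged from -2.22 to 2.86 for Efnb1, -1.40 to 2.62 for Plxnd1, -1.44 to 0.79 for Robo4 and -0.47 to 3.63 for Unc5b. In endothelium they ranged from -0.21 to 0.34 for Efna1, -0.32 to 0.0738 for Efnb2, -0.0793 to 0.30 for Ephb4, -0.19 to 0.30 for Plxnd1, -1.15 to 2.87 for Sema3g and -0.41 to 0.78 for Unc5b. In the interaction they ranged from -3.25 to 1.83 for Efnb1, -1.10 to 7.61 for Epha2, -1.48 to 2.55 for Plxnd1, -0.56 to 0.58 for Robo1, -1.95 to 0.28 for Robo4 and -0.52 to 3.58 for Unc5b. A library left without its replicate was assumed to vary like the other groups.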
